A study of Mus musculus with 11 samples.

Results

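Genes encoding histone lysine methyltransferases, lysine demethylases and the acetyltransferases Crebbp and Ep300 were examined in irradiated and control KP1 cells. The protein-coding genes were chosen by name: symbols beginning with Kmt, Kdm or Setd and a further character, together with Ezh1, Ezh2, Ehmt1, Ehmt2, Crebbp and Ep300. This gave 42 of the 21830 protein-coding genes, and of the 35056 genes of any type, that had transcripts in the files. The rule reads names and no measured value.

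KP1 is a cell line from a mouse small cell lung cancer (SCLC) that carries mutations in Rb and p53, and it was grown in culture as floating cells. Bulk RNA sequencing covered 2 control cultures, which were left untreated, and 3 irradiated cultures, which received 5 Gy and were collected at 24 h. All 5 libraries came from this 1 line, so any difference holds for this line alone. No label says whether the cultures were grown separately, so the p values measure the spread between these libraries, which may be technical. Of 8 neuroendocrine markers of SCLC, all 8 passed the filter on low counts, with Chga at 396 to 437 TPM (Salmon's abundance, scaled for transcript length and to the same total in each library) in control and 278 to 475 TPM in irradiated libraries. Among 6 leukocyte markers none passed the filter, and their summed abundance was at most 0.498 TPM. Of 6 fibroblast and endothelial markers, 3 passed the filter and 0 were called after irradiation, with Pdgfra the highest at 36.6 to 56.7 TPM. Of the 8 neuroendocrine markers, 1 fell (Ncam1) and 3 rose (Syp, Uchl1 and Calca), beside 13.0% and 12.7% of all genes tested. With an offset for transcript length, described below, 0 of the 8 were called.

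Lysine methylation of histones is written mostly by enzymes with a SET domain. It is erased by the amine oxidases Kdm1a and Kdm1b or by the JmjC family of oxygen-dependent dioxygenases, and is read by other proteins. Methyl groups on H3K4 mark promoters and enhancers, those on H3K36 mark transcribed gene bodies, and those on H3K9 and H3K27 mark silenced chromatin. Crebbp and Ep300 acetylate H3K27 and other lysines at enhancers. Inactivating mutations in CREBBP, EP300 and KMT2D recur in human SCLC, and EZH2 and KDM1A (LSD1) have been studied as drug targets in this cancer.

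After irradiation, 17 of the 41 members that passed the filter on low counts fell at an adjusted p under 0.05, and none rose. The comparison used edgeR's quasi-likelihood test across all 14106 genes kept by the filter, of which 13.0% were called lower and 12.7% higher. At an unadjusted p under 0.05 from edgeR, 26 members were lower and 0 were higher, beside 20.1% and 20.9% of all genes. DESeq2 called 24 members lower and 0 higher, beside 16.3% and 17.1% of the genes to which it gave an adjusted p. The median log2 fold change was -0.45 over the 41 members and 0.02 over all genes tested, and 35 members had a negative value. The members that fell were the COMPASS methyltransferase genes Kmt2a, Kmt2b, Kmt2c, Kmt2d, Setd1a and Setd1b, together with Kmt2e, Setd2, Setdb1, Ehmt1, Kmt5b, both acetyltransferase genes and the demethylase genes Kdm2a, Kdm3b, Kdm5c and Kdm6b. All 3 irradiated libraries lay below both controls in 30 members and above both in 0 members. Across all genes tested these shares were 29.3% and 30.1%. Control replicate 2 bore on the count: without it 6 members were called lower (Kmt2b, Kmt2c, Kmt2d, Setd1b, Crebbp and Ep300), and over all genes the lower calls went from 1827 to 175. Without irradiated replicate 1, 11 members were called.

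**Figure D1:**
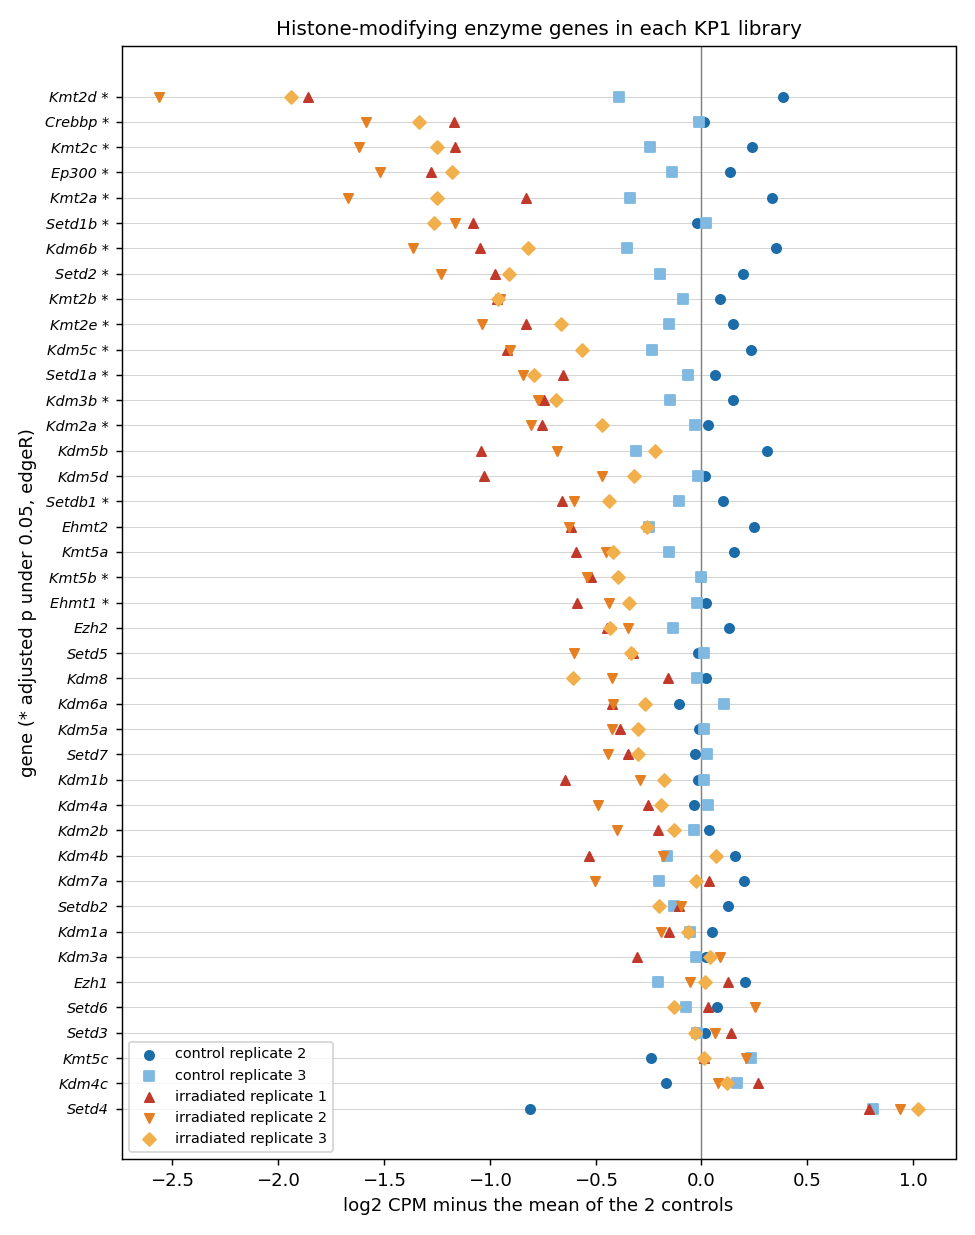
Each row is 1 of the 41 tested genes and each point 1 library. The x axis gives log2 CPM (counts scaled to library size by TMM) minus the mean of the 2 controls, and asterisks mark an adjusted p under 0.05 from edgeR. The irradiated libraries (triangles and diamonds) sit left of both controls in 30 rows, and Kmt2d has the lowest values.

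These genes have long messenger RNAs, and the libraries were not alike in how long their sampled transcripts were. The most-read transcript had a median length of 5916 bases over the tested members and of 2981 bases over all genes tested. Averaged over reads, the transcript length came to 5463 and 4729 bases for the controls and to 3715, 3625 and 3998 bases for the irradiated libraries, and the depth of the libraries was 21185956 to 31036317 reads. The 17 members that fell had transcripts of at least 4622 bases. For members with transcripts under 3000 bases 0 of 8 fell, against 2.77% of all genes in that range. From 3000 to under 5000 bases, 2 of 11 members fell and 10.2% of all genes did. From 5000 to under 7000 bases the values were 5 of 9 members and 29.3%, and from 7000 bases upwards they were 10 of 13 members and 63.7%. Long genes as a class were therefore lower in the irradiated libraries, and most members that fell were among them. Over the 41 members, Pearson's r between log2 length and log2 fold change was -0.77 and Spearman's rho was -0.72, as a description of points that share the same 5 libraries. Over all genes tested these were -0.43 and -0.56. A loss of long messenger RNAs in irradiated cells and a difference in RNA or library makeup between the groups cannot be told apart in this design. In bulk RNA, fewer cells of a kind and less RNA per cell cannot be told apart either.

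**Figure D2:**
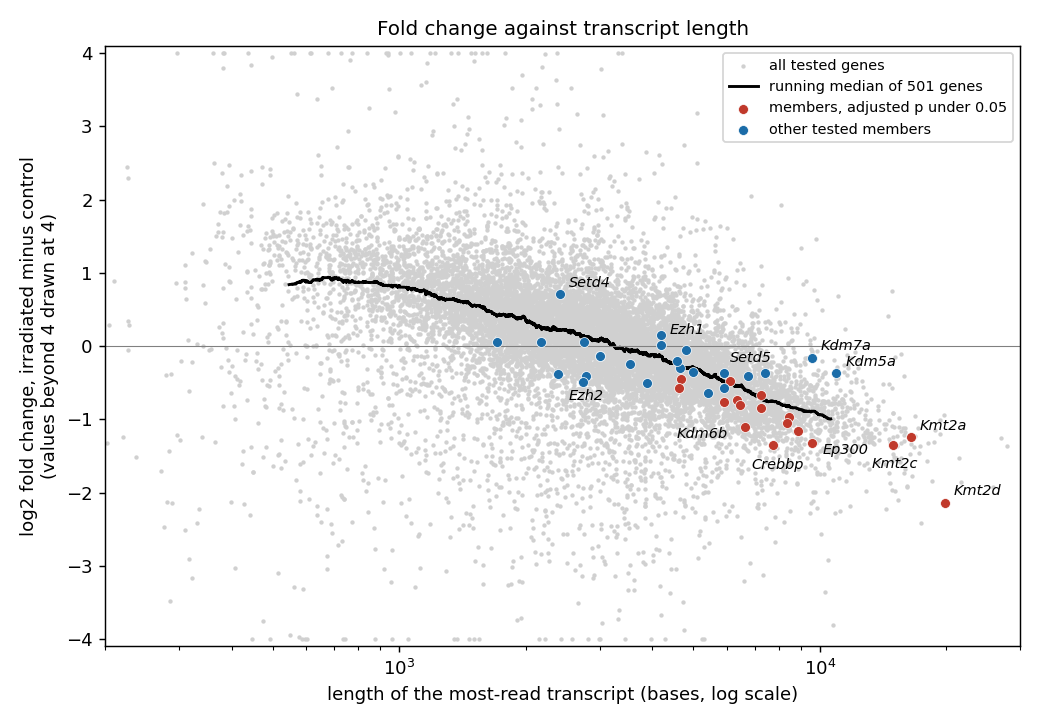
The x axis gives the length of the most-read transcript in bases on a log scale and the y axis the log2 fold change of irradiated against control cells. Grey points are the 14106 tested genes, the black line their running median, red points the 17 members that fell and blue points the 24 others. The black line goes down with length, Kmt2d lies below it at the right edge, and Kdm7a and Kdm5a lie above it.

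To set each member against genes of like length, it was compared with the 500 tested genes nearest to it in transcript length. The member lay below the median of these genes in 29 cases and above it in 12, with a median difference of -0.20 and a range from -1.14 to 0.73. Kmt2d had 12 of its 500 neighbours below it, although these were mostly shorter than its own transcript of 19823 bases. Crebbp had 42, Kdm6b had 51 and Ep300 had 81 of 500 neighbours below them. Shorter members without a call also ranked low: Kdm8 had 60, Kmt5a had 67 and Ezh2 had 77 of 500 neighbours below them. Kmt2a had 142 of 500 below it and Kdm2a had 266, which placed Kdm2a in the middle of genes of its length. At the other end were Kdm7a with 464 and Kdm5a with 443 of 500 neighbours below them.

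A second fit removed from each library its trend with transcript length (the transcript length offset). In that fit 1 member, Kmt2d, was lower and 1 member, Kdm7a, was higher at an adjusted p under 0.05. Over all genes 2.16% were lower and 2.99% higher. The median over members was -0.17, with 30 negative values, and the median over all genes was 0.04. At an unadjusted p under 0.05 in this fit, 7 members were lower and 2 higher, and the shares over all genes were 12.1% and 15.9%. With splines on length and GC content together, an alternative chosen after the data were seen, Kmt2d, Crebbp and Ep300 were lower and Kdm7a higher, beside 2.60% and 3.72% of all genes. The call of Kmt2d with the length offset was lost without control replicate 2 (adjusted p = 0.156 by edgeR) and without irradiated replicates 1, 2 and 3 (0.0719, 0.121 and 0.0776), and was kept without control replicate 3 (0.0372). Without that last library Ezh2 (-0.63), Kdm6b (-0.73) and Kmt5a (-0.74) were called lower as well, and Kdm5a (0.80) was called higher. These calls rested on which control was kept: without control replicate 2 the values were -0.28 for Ezh2, -0.21 for Kdm6b, -0.34 for Kmt5a and 0.38 for Kdm5a, and the 4 genes did not pass (adjusted p from 0.249 to 0.519 by edgeR). The call of Kdm7a was lost without each of the 5 libraries in turn, with adjusted p values from 0.0669 to 0.16 from edgeR. Its log2 fold change stayed between 0.60 and 0.81.

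**Figure D3:**
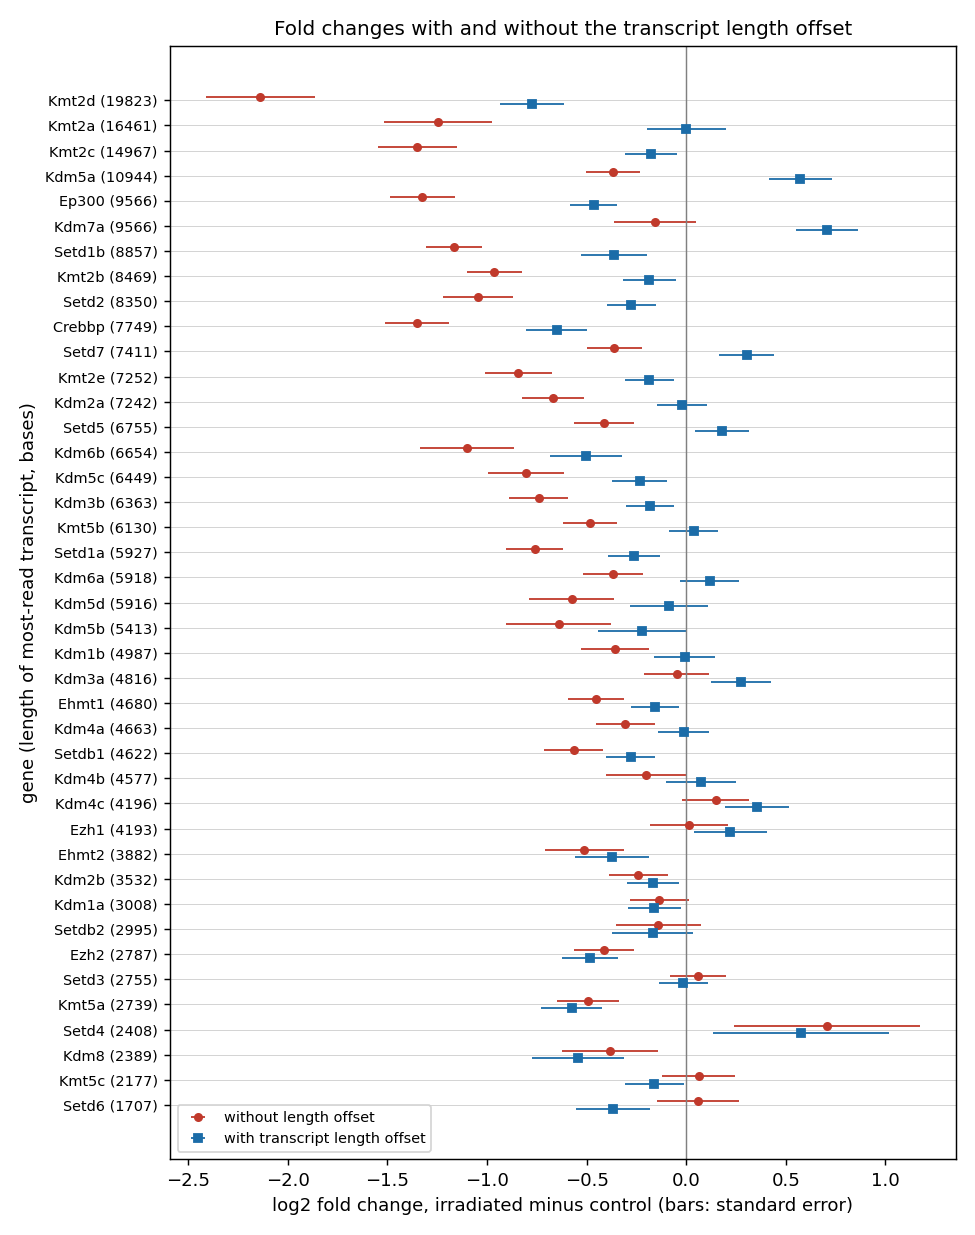
Genes are ordered by the length of their most-read transcript, given in bases beside each symbol. The x axis is the log2 fold change of irradiated against control cells, with bars of 1 standard error. Red circles (no offset) move left as length grows, whereas blue squares (length offset) do not, and Kmt2d at the top keeps the lowest value in both.

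Of the 8 H3K4 methyltransferase genes, 7 were called lower, beside 13.0% of all genes tested, and the median log2 fold change was -1.06. Their median transcript length was 8663 bases. Of all tested genes with transcripts from 7000 bases upwards, 63.7% were lower, with a median of -0.87, so most of this count goes with length. With the length offset 1 of 8 was lower, beside 2.16% of all genes, and the median of the 8 was -0.18. Kmt2d, which places H3K4 methylation at enhancers, lies on chr15:98831669-98871204 of GRCm38 on the minus strand, and its most-read transcript joins 55 exons. It had 413 and 241 CPM in control replicates 2 and 3 and 86.9, 53.5 and 82.4 CPM in irradiated replicates 1, 2 and 3. Every irradiated library was thus far under the lower control, while the controls also stood apart from each other. The log2 fold change was -2.14 (standard error, SE, 0.27, adjusted p = 0.00825 by edgeR), a 4.40-fold lower level. Kmt2d alone among the members passed a log2 fold change of -1.5 with an adjusted p under 0.05, as did 1.90% of all genes on the lower side. Without control replicate 3 there were 4 such members, the others being Kmt2a at -1.52, Kmt2c at -1.55 and, on the higher side, Setd4 at 1.75. With the length offset its log2 fold change was -0.77 (adjusted p = 0.0385 by edgeR).

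Kmt2c, the partner paralog of Kmt2d at enhancers (chr5:25271798-25498783), had 231 and 165 CPM in the controls and 87.1, 63.4 and 82.1 CPM in the irradiated libraries. The groups did not overlap, and the log2 fold change was -1.35 (SE 0.20, adjusted p = 0.00896 by edgeR). With the length offset it was -0.18 (adjusted p = 0.413 by edgeR). Kmt2a, the MLL1 gene that acts at Hox genes (chr9:44803355-44881296), had 436 and 274 CPM in the controls and 194, 109 and 145 CPM after irradiation. Its log2 fold change of -1.25 (SE 0.27, adjusted p = 0.0159 by edgeR) went to 0 within rounding with the offset (adjusted p = 1 by edgeR). Kmt2a and Kmt2d have the longest transcripts of all members, at 16461 and 19823 bases, and were set against each other within each library. The CPM ratio of Kmt2d to Kmt2a was 0.948 and 0.882 in the controls and 0.447, 0.493 and 0.566 in the irradiated libraries. Kmt2d was thus lower relative to Kmt2a in every irradiated library than in either control. The transcript of Kmt2d is the longer of the 2 and has 58.4% G and C, against 50.6% in Kmt2a. This ratio is given as a description with no test.

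Kmt2b, the MLL2 gene, had 189 and 167 CPM in the controls and 90.8, 91.8 and 91.1 CPM in the irradiated libraries, which were nearly identical to each other. The log2 fold change was -0.96 (SE 0.14, adjusted p = 0.00869 by edgeR). Setd1b, which encodes a catalytic subunit of the complex for H3K4 trimethylation at promoters, had 118 and 122 CPM in the controls and 56.9, 53.6 and 50.1 CPM after irradiation. Here both groups were tight and far apart, with a log2 fold change of -1.17 (SE 0.14, adjusted p = 0.00825 by edgeR). Its paralog Setd1a had 174 and 159 CPM against 106, 92.6 and 95.9 CPM and a log2 fold change of -0.76 (adjusted p = 0.011 by edgeR). Kmt2e, grouped here by name although its SET domain is thought to lack catalytic activity, had 273 and 221 CPM against 139, 120 and 155 CPM and a log2 fold change of -0.84 (adjusted p = 0.0131 by edgeR). With the length offset these 4 genes had log2 fold changes between -0.36 and -0.18, and none was called. Setd7, which monomethylates H3K4 and other proteins, had a log2 fold change of -0.36 (adjusted p = 0.0832 by edgeR). Kmt2e shares 972 exonic bases with Srpk2 on the opposite strand, and since the strand setting is not given in the sources used here, reads in that stretch cannot be assigned with certainty.

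Both acetyltransferase genes fell. Crebbp (chr16:4081328-4213997) had 158 and 156 CPM in the controls and 69.9, 52.4 and 62.3 CPM in the irradiated libraries. The controls were almost equal and every irradiated library was far under both, with a log2 fold change of -1.35 (SE 0.16, adjusted p = 0.00825 by edgeR). Ep300 (chr15:81585351-81652077) had 229 and 190 CPM in the controls and 85.8, 72.8 and 92 CPM after irradiation, with a log2 fold change of -1.33 (SE 0.16, adjusted p = 0.00825 by edgeR). With the length offset Crebbp and Ep300 were at -0.65 and -0.46, where edgeR gave adjusted p = 0.0501 and 0.0585, both just over the threshold. Both paralogs were called without control replicate 2, at -1.32 and -1.16 (adjusted p = 0.0439 for each from edgeR).

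Ep300 and Kdm7a have most-read transcripts of the same length, 9566 bases, and differed in response. Kdm7a, a JmjC demethylase of H3K9 and H3K27 (chr6:39136623-39206789), had 64.1 and 48.5 CPM in the controls and 57.1, 39.4 and 54.8 CPM in the irradiated libraries. Its groups overlapped, and the log2 fold change was -0.16 (SE 0.21, adjusted p = 0.6 by edgeR). The ratio of Ep300 to Kdm7a was 3.58 and 3.91 in the controls and 1.5, 1.85 and 1.68 in the irradiated libraries. No irradiated library came near a control. Crebbp was likewise set against Kdm5a, an H3K4 demethylase gene with a longer transcript of 10944 bases. Kdm5a had 112 and 114 CPM in the controls and 86.6, 84.5 and 91.9 CPM after irradiation, a log2 fold change of -0.37 (adjusted p = 0.077 by edgeR). The ratio of Crebbp to Kdm5a was 1.41 and 1.36 in the controls and 0.807, 0.62 and 0.678 in the irradiated libraries, again with no overlap. These pairs were chosen after their values were seen, so their ratios are given as a description with no test. The transcripts also differ in base composition, with 51.1% G and C in Ep300, 52.7% in Crebbp, 39.6% in Kdm7a and 43.3% in Kdm5a. Over the 41 members, GC content and the log2 fold change with the length offset had a Pearson's r of -0.47 and a Spearman's rho of -0.42, as a description. With an offset on GC content alone, which takes no account of length, log2 fold changes were -1.36 for Ep300 and 0.18 for Kdm7a. In that fit they were -1.45 for Crebbp and -0.17 for Kdm5a. The part of base composition in the differences within these pairs was not tested.

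**Figure D4:**
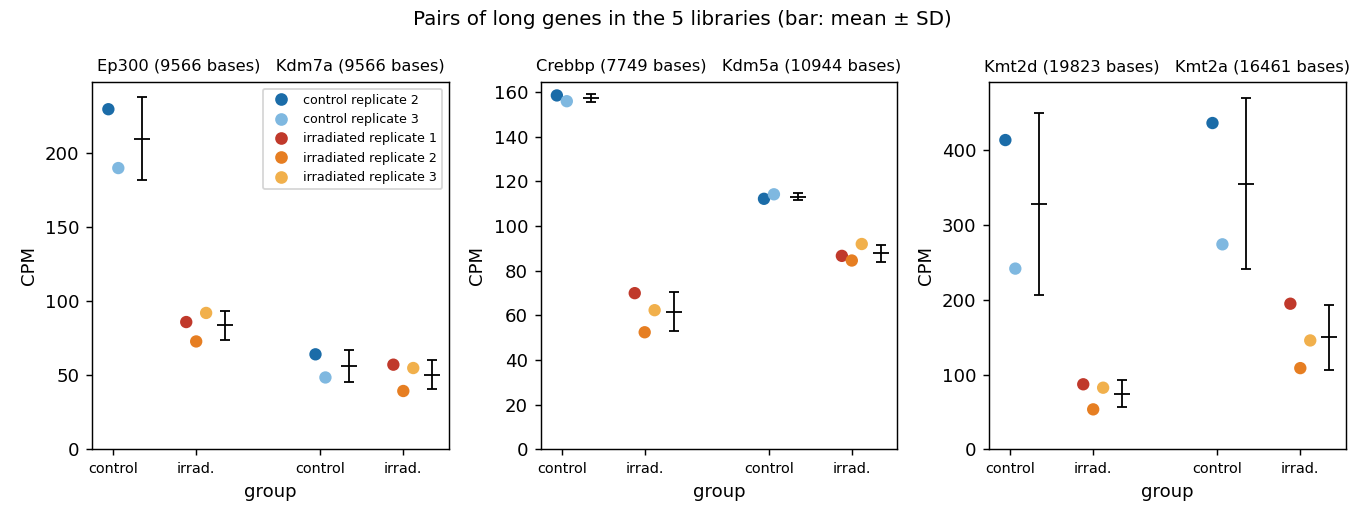
The y axis gives CPM in each library for 3 pairs of long genes, with the length of the most-read transcript above each panel. Points are libraries, and the bars are the mean and SD of the 2 control or 3 irradiated libraries. Ep300, Crebbp, Kdm5a, Kmt2d and Kmt2a separate by group, whereas Kdm7a overlaps between groups.

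Promoters were compared for the members that behaved differently at like length. The windows below run from 250 bases before to 50 bases after the RefSeq start on GRCm38.p6, 5′ to 3′ on the gene's strand, and capitals mark every CG dinucleotide. They are shown because Kmt2d was the gene with the largest fall and because Ep300 and Kdm7a are the pair of equal transcript length. Kmt2d is at chr15:98871156-98871455 (minus strand), Ep300 at chr15:81585964-81586263 (plus strand) and Kdm7a at chr6:39206724-39207023 (minus strand).
Kmt2d: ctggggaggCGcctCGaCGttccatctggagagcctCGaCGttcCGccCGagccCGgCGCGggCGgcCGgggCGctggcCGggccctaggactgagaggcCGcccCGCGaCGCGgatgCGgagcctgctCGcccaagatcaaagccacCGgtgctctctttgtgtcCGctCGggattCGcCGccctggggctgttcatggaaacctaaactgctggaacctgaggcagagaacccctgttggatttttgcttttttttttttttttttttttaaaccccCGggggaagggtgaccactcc
Ep300: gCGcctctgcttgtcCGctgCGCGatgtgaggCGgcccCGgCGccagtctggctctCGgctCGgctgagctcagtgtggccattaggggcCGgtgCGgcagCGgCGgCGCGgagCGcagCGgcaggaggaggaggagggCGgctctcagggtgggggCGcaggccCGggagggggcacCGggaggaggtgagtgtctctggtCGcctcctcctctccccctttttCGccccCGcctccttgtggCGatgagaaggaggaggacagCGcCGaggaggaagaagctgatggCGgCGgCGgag
Kdm7a: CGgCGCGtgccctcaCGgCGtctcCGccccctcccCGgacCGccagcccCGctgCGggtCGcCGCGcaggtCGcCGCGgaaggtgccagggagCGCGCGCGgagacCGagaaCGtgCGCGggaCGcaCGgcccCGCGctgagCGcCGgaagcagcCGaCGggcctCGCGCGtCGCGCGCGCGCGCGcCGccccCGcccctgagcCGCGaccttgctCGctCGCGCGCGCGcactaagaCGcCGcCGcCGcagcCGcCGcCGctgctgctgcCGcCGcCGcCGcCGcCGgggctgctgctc
The Kmt2d window held 27 CG dinucleotides, the Ep300 window 30 and the Kdm7a window 65. The RefSeq start lay 1 base from the GENCODE start for Kmt2d and 16 bases for Kdm7a, but 863 bases for Ep300, so these windows do not cover like positions. RefSeq windows were found for 34 of the 42 members, and where a gene had several, the one nearest its GENCODE start was used. The distance was also large for Setd5 (27570 bases), Kdm2b (724), Setd1a (719) and Crebbp (593). The windows had a median of 26.5 CG dinucleotides, against 7 over all 32851 promoters. Those promoters belong to 27025 genes, whether or not these passed the filter on low counts. The median over the tested genes alone was not taken, so the difference is not shown to be particular to the members. The 11 windows of members that fell had a median of 34, and the 23 others had a median of 23. Windows were lacking for Kmt2b, Kmt2e, Setd1b, Kdm2a, Kdm3b and Kdm6b, which fell, and for Kdm4b and Kdm5a, which did not pass. The 23 others include the untested Kdm4d and the distant window of Setd5, which held 1 CG. Comparisons of members that fell with the others, here and below, therefore cover only part of those that fell.

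The E2F words TTTCCCGC, TTTCGCGC, TTTGCCGC and TTTGGCGC were searched on both strands because E2F factors act downstream of Rb, which is mutated in this line. They occurred in 2 of the 34 windows, those of Ezh2 and Kmt5c, and in 2.26% of all promoters. The word CCAAT, on either strand, occurred in 13 of the 34 windows and in 37.4% of all promoters. It occurred in 2 of the 11 windows of members that fell and in 11 of the 23 others. The hypoxia-type words ACGTG and GCGTG occurred in 22 of the 34 windows and in 43.8% of all promoters. The CRE word TGACGTCA occurred in 0 of the 34 windows and in 1.79% of all promoters. A match is a run of letters and not evidence of binding. The Ezh2 window (chr6:47594981-47595280, minus strand) is shown because it held both 1 E2F word and 3 CCAAT words, here in capitals.
Ezh2: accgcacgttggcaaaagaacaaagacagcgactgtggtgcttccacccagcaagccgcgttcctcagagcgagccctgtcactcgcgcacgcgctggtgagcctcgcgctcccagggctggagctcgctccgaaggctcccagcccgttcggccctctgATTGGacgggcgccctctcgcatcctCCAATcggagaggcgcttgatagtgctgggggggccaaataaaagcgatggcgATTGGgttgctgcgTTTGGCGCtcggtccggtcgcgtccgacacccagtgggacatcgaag
The window starts from a RefSeq start that lies 311 bases from the GENCODE start of the gene.

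Ezh2, the catalytic subunit of PRC2 that methylates H3K27, was among the most abundant members per length. It had 270 and 225 CPM in the controls and 181, 193 and 182 CPM in the irradiated libraries. All irradiated libraries were below both controls, but the log2 fold change of -0.41 missed the threshold (SE 0.15, adjusted p = 0.0723 by edgeR). Its transcript is short for this group, at 2787 bases. With the length offset the value was -0.48 (adjusted p = 0.0778 by edgeR). The tested genes nearest to Ezh2 in length had a median log2 fold change of 0.12 without the offset. Removing the length trend therefore lowers values at this length. That Ezh2 did not move toward 0 follows from its length and does not set it apart from the long genes. The paralog Ezh1 had 22.8 and 17.1 CPM in the controls and 21.5, 19 and 20 CPM after irradiation, with overlapping groups and a log2 fold change of 0.02 (adjusted p = 0.961 by edgeR). The ratio of Ezh2 to Ezh1 was 11.8 and 13.1 in the controls and 8.39, 10.2 and 9.14 in the irradiated libraries, without overlap, again as a description. Across 10 partner subunits of PRC2, 0 fell and 1 rose, beside 13.0% and 12.7% of all genes tested. The one that rose was Rbbp4, a histone-binding subunit shared with other complexes, with a log2 fold change of 0.68 (adjusted p = 0.0289 by edgeR) and 0.93 with the length offset (adjusted p = 0.0347 by edgeR).

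Of the demethylases of H3K27, Kdm6b (JMJD3, chr11:69398508-69413675) fell and Kdm6a (UTX) did not pass the test. Kdm6b had 367 and 225 CPM in the controls and 139, 112 and 163 CPM in the irradiated libraries, a log2 fold change of -1.10 (SE 0.24, adjusted p = 0.0152 by edgeR). The irradiated values were all below the lower control, and the controls differed widely from each other. With the offset it was -0.50 (adjusted p = 0.119 by edgeR). Kdm6a had 49.7 and 57.5 CPM against 39.8, 40 and 44.5 CPM, a log2 fold change of -0.37 (adjusted p = 0.1 by edgeR) that became 0.12 with the offset.

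Setd2, the enzyme of H3K36 trimethylation in gene bodies (chr9:110532597-110618633), had 283 and 216 CPM in the controls and 126, 106 and 132 CPM after irradiation. All irradiated libraries were well under both controls, with a log2 fold change of -1.05 (SE 0.17, adjusted p = 0.00922 by edgeR), and -0.28 with the offset (adjusted p = 0.184 by edgeR). The other SET-domain genes did not pass the test: log2 fold changes were 0.06 for Setd3, which encodes an actin histidine methyltransferase, 0.71 for Setd4, -0.41 for Setd5 and 0.06 for Setd6. Setd4 was low, at 1.58 and 4.84 CPM in the controls, which differed from each other more than the irradiated libraries did from control replicate 3, and its most-read transcript was of the retained-intron type. Without control replicate 3, Setd4 was called higher, at 1.75 (adjusted p = 0.0219 by edgeR). The H3K36 demethylase gene Kdm2a fell, with 236 and 226 CPM in the controls, 137, 132 and 167 CPM in the irradiated libraries and a log2 fold change of -0.67 (adjusted p = 0.0199 by edgeR). With the offset it was -0.02 (adjusted p = 0.929 by edgeR). Kdm2b and Kdm8 were at -0.24 and -0.38 and did not pass.

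For H3K9, 2 of 4 methyltransferase genes and 1 of 3 demethylase genes fell, beside 13.0% of all genes tested. Setdb1, which silences retroelements, had 160 and 139 CPM in the controls and 94.5, 98.4 and 110 CPM after irradiation, with a log2 fold change of -0.57 (SE 0.15, adjusted p = 0.0285 by edgeR). Ehmt1 (GLP), which works in a heterodimer with Ehmt2, had 181 and 176 CPM against 119, 132 and 141 CPM and a log2 fold change of -0.45 (SE 0.14, adjusted p = 0.0488 by edgeR), close to the threshold. Ehmt2 (G9a) had 553 and 393 CPM against 305, 302 and 390 CPM. Its irradiated libraries were all below both controls, irradiated replicate 3 by a small margin, and -0.51 missed the threshold (adjusted p = 0.0915 by edgeR). Setdb2 was at -0.14. The demethylase gene Kdm3b fell from 184 and 150 CPM to 99.1, 97.4 and 103 CPM, a log2 fold change of -0.74 (adjusted p = 0.0129 by edgeR). Its paralog Kdm3a had 171 and 165 CPM in the controls and 136, 179 and 173 CPM in the irradiated libraries, with overlapping groups and a log2 fold change of -0.05. With the offset none of these 6 genes was called. The remaining demethylase gene counted here, Kdm7a, was called higher with the offset, at 0.71 (adjusted p = 0.0438 by edgeR). As described above, that call was lost when any library was left out. Setdb1 shares 75 exonic bases with Cers2 on the opposite strand.

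The Kdm4 genes, which encode demethylases of H3K9 and H3K36, did not pass the test. Kdm4b had 238 and 191 CPM in the controls and 148, 188 and 224 CPM after irradiation, and Kdm4c had 30.9 and 39 CPM against 41.7, 36.6 and 37.8 CPM. Both had overlapping groups, with log2 fold changes of -0.20 and 0.15. Kdm4a was at -0.31, and Kdm4d was too low to test, with 8 and 1 reads in the controls and at most 5 in the irradiated libraries. The H3K4 demethylase gene Kdm5c (chrX:152233020-152274535) fell from 272 and 196 CPM to 122, 124 and 156 CPM, a log2 fold change of -0.80 (SE 0.19, adjusted p = 0.0208 by edgeR). Kdm5b had 265 and 172 CPM against 103, 133 and 183 CPM, so irradiated replicate 3 lay above control replicate 3, and -0.64 missed the threshold (adjusted p = 0.104 by edgeR). Kdm5d, the Y-linked copy of Kdm5c, was at -0.58 (adjusted p = 0.0786 by edgeR). Kdm5c and Kdm5d are near copies, so the quantification could have split reads between them, and the values of the pair are uncertain to that extent. Their ratio overlapped between groups, from 4.21 to 5.71 in controls and from 3.63 to 5.29 after irradiation.

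Kdm1a (LSD1), the amine oxidase of H3K4 in the CoREST complex, was the most abundant member per length in both groups, at 462 ± 1.68 TPM (SD, n = 2) in control and 327 ± 34.5 TPM (SD, n = 3) in irradiated libraries. In CPM it had 615 and 572 in the controls and 533, 520 and 568 after irradiation, so irradiated replicate 3 lay just under control replicate 3. The log2 fold change of -0.13 had a standard error of 0.15 (adjusted p = 0.528 by edgeR). Its paralog Kdm1b was at -0.36. The H4K20 methyltransferase gene Kmt5b fell, with 105 CPM in both controls and 73.4, 72.5 and 80.3 CPM in the irradiated libraries, a log2 fold change of -0.48 (SE 0.14, adjusted p = 0.0362 by edgeR), which turned to 0.04 with the offset. Kmt5a, which monomethylates H4K20 in mitosis, was at -0.49 just outside the threshold (adjusted p = 0.0506 by edgeR) and at -0.57 with the offset (adjusted p = 0.0633 by edgeR). Kmt5c was at 0.06.

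Levels within a library were compared per length. In the controls the order in mean TPM began with Kdm1a, then Kmt5a at 293 ± 44.7 TPM, Ehmt2 at 289 ± 58.7 TPM and Ezh2 at 243 ± 4.35 TPM (SD, n = 2 each). Kmt5a and Ehmt2 did not differ beyond their spread. The lowest tested members were Setdb2 at 11 ± 3.52, Kdm8 at 8.8 ± 0.0081 and Setd4 at 7.32 ± 5.11 TPM (SD, n = 2). The first 4 places were the same after irradiation. Kmt2d went from place 26 to place 37 of 42, Kdm6b from 11 to 20 and Ep300 from 21 to 27, whereas Kmt5c went from 23 to 12. TPM does not remove the trend with length between the groups. The transcripts of Kmt2d, Kdm6b and Ep300 have 19823, 6654 and 9566 bases, and that of Kmt5c has 2177. Summed over the 41 tested members, the abundance was 3494 and 3263 TPM in the controls and 1834, 1782 and 2159 TPM in the irradiated libraries. On the log2(TPM + 1) scale 26 members were lower by limma and 0 higher, and the median was -0.82 over members. On that scale the median over all genes was itself -0.24.

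Salmon also assigned reads to transcripts with retained introns, a readout that the choice of members did not use and that was taken up after the data were seen. Of 30 members with such an annotated transcript and at least 100 reads in every library, 17 had a retained-intron share of their reads below both controls in all 3 irradiated libraries, and 0 had one above both. Over 6141 genes of the same kind the lower pattern occurred in 42.7% and the higher one in 2.52%, so the count of 0 is near the background. Summed over the 30 members the share was 3.32% and 3.72% in the controls and 1.42%, 2.43% and 1.92% in the irradiated libraries, beside 3.71% and 4.25% against 1.97%, 2.85% and 2.52% over all such genes. For Kmt5c the share was 12.1% and 13.2% in the controls and 2.86%, 4.92% and 5.43% after irradiation. For Kdm6a it was 31.4% and 18.5% against 6.53%, 15.5% and 14.1%, and for Setd5 it was 29.2% and 10.4% against 7.12%, 7.59% and 7.35%. Ep300 showed no such pattern, at 1.22% and 2.71% in the controls and 0.839%, 2.71% and 3.02% in the irradiated libraries. These shares are estimates from short reads and rest on how Salmon divides reads between overlapping transcripts.

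The other genes of these pathways were counted by lists, and the lists were chosen with earlier results of these data known. Over all genes tested, 13.0% fell and 12.7% rose, and with the length offset 2.16% and 2.99% did. Of 14 partner subunits of the COMPASS complexes, 3 fell and 0 rose (Hcfc1 at -1.28, Ncoa6 at -1.22 and Bod1l at -1.42), and the median was -0.10. The core subunits Wdr5, Rbbp5, Ash2l and Dpy30, which all these methyltransferases share, were not among those called. Of 16 tested lysine methyltransferase genes outside the name rule, 6 fell and 0 rose, among them the H3K36 enzymes Nsd1 at -1.17, Nsd2 at -0.87 and Nsd3 at -0.58 and the H3K79 enzyme Dot1l at -0.86. Of 13 other acetyltransferase genes, 6 fell (Kat6a at -1.14, Kat6b, Ncoa1, Ncoa2, Ncoa3 and Taf1) and 0 rose. The called genes of these lists had long transcripts, from 6808 bases (Dot1l) to 12784 bases (Nsd1), and with the length offset 0 of the 3 lists' genes were called.

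The counts that follow stand beside 13.0% of all genes tested that fell and 12.7% that rose. A count near these shares is not particular to its list. Among partners of the LSD1-CoREST complex, 2 of 11 fell (Gse1 at -1.10 and Zmym3 at -0.64) and 1 rose (the deacetylase gene Hdac1 at 0.60). Of 8 H3K9 partners and readers, 3 fell and 0 rose: Wiz, a partner of Ehmt1 and Ehmt2, at -0.53, Atf7ip, a partner of Setdb1, at -0.93 and Cbx5 (HP1 alpha) at -1.04. Of 18 deacetylase and sirtuin genes 3 fell (Hdac4, Hdac6 and Hdac9) and 2 rose (Hdac1 and Hdac11), with Hdac11 at 0.84 and still called with the offset, at 0.75 (adjusted p = 0.0335 by edgeR). Of 8 other JmjC genes 1 fell (Jmjd1c at -0.71) and 1 rose (Jmjd6 at 0.70), and of 9 arginine methyltransferase genes 0 fell and 1 rose (Prmt1 at 0.66). Proliferation genes moved beside these: of 10, 2 fell (Mki67 at -2.57 and Top2a at -1.34), both also with the offset, and 1 rose (Pcna at 0.86). Of the called genes of the lists from LSD1-CoREST to proliferation, Hdac11, Mki67 and Top2a kept their call with the length offset. The others lost it, among them Prmt1 at 0.01 (adjusted p = 0.954 by edgeR) and Jmjd6 at 0.27 (adjusted p = 0.198 by edgeR). The part of the proliferation genes in the levels of the histone-modifying enzymes was not tested.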

How the data were processed

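Bulk RNA of KP1 cells was sequenced in 2 control and 3 irradiated libraries. The authors quantified reads with Salmon (0.8.2 in the submitters' processing notes, which also list DESeq2 1.22.2 and mm10). The deposited files give, per transcript, the estimated count of reads, which is an expected count that is not normalized, and the TPM computed by the authors' Salmon run. The deposited files also give transcript length and effective length in bases. The transcript release and strand setting are not given in the sources used here. Single-cell samples of this series were left out.

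Transcripts were assigned to genes with GENCODE M21 on GRCm38, the same build as mm10. This matched 112762 of 113116 transcripts and at least 99.87% of reads. Estimated counts were summed per gene and rounded. Irradiated and control cells were compared in edgeR 4.0.16 (R 4.3.3) by the quasi-likelihood test after filterByExpr and TMM scaling, and p values were adjusted after Benjamini and Hochberg over 14106 genes. The common dispersion was 0.0542. Depth was 21185956 to 31036317 reads, and a gene's floor was taken as 3 reads, which covers counting error alone. The offsets came from natural splines with 5 degrees of freedom fitted per library on log transcript length or GC content. They remove any such trend, technical or biological. Alternatives were DESeq2 1.42.0, limma 3.58.1 on log2(TPM + 1) and log2(TPM + 0.1), RLE normalization, no filter, protein-coding genes alone, the replicate block, and each library left out. Crossed numbers in the block, splines on length and GC content together, and libraries left out of the length-offset fit were added after the data were seen. Scripts were tested on simulated data. With 2 against 3 libraries an exact two-sided permutation test on 1 gene cannot go below 0.1.

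Values in every library are given for members called in either fit and for a list of 18 of them, and the other members by log2 fold change. Some genes of the lists are not reported here. The members and lists were chosen with earlier results of these data known. Promoters are from RefSeq (GRCm38.p6). Python 3.11.15 with pandas 2.3.3, numpy 2.4.6 and matplotlib 3.10.9 prepared tables and plots.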

Additional observations from a re-analysis of the deposited data

How the results depend on the processing

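Precision was limited by the number of libraries, with 2 controls, and for Setd4 and Kdm4d also by low counts. Kmt2d kept a negative log2 fold change under the 17 alternatives to the main comparison, from -2.46 to -0.77, and kept its call in 16. Crebbp and Ep300 kept theirs in 15, whereas Kmt5b kept its call in 6 and Ehmt1 in 7. These 17 do not include the length-offset fit with a library left out. In that fit, as given above, Kmt2d lost its call without irradiated replicate 1, 2 or 3, at -0.88, -0.65 and -0.79.

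The count of members lower (17), of members higher (0), of members past a log2 fold change of 1.5 (1) and the median (-0.45) changed as follows. With the transcript length offset they were 1, 1, 0 and -0.17. With splines on length and GC content they were 3, 1, 0 and -0.20. On log2(TPM + 1), 26 were lower, 5 were past 1.5 and the median was -0.82, and on log2(TPM + 0.1) these were 26, 7 and -0.84. With each library left out in turn, 6 to 18 were lower, 0 to 1 higher and 1 to 4 past 1.5, and the median was -0.51 to -0.37. The single higher call was Setd4 without control replicate 3, and a lone control was assumed to vary like the irradiated libraries. In the length-offset fit, leaving out a library gave 0 to 4 lower and 0 to 1 higher members. DESeq2, RLE normalization, no filter, protein-coding genes alone and the GC offset gave 17 to 24 lower and 0 higher members. The cause of these changes was not tested. Over all genes, 1827 were lower and 1786 higher, against 2292 and 2413 by DESeq2, 1979 and 2520 without a filter, 305 and 422 with the length offset, 367 and 525 with both splines, and 2678 and 693 on log2(TPM + 1).

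The numbers 2 and 3 occur in both groups, but no label says that they pair cultures. The log2 ratio of replicate 2 to 3 in the controls correlated at -0.196 across genes with that in the irradiated group. With the replicate block, in which irradiated replicate 1 has no weight, 8 members were lower and 0 higher. Over all genes 494 were lower and 602 higher in that fit. Ezh1 was at -0.021 and Kdm3a at 0.065. With the numbers crossed, 25 members were lower and 0 higher, beside 2670 and 3026 of all genes. The count of members thus moved with the calls over all genes. Ezh1 was at -0.023 and Kdm3a at 0.065 with the numbers crossed. With the block and the length offset 0 members were lower, 0 were higher and 0 were past 1.5, and the median was -0.18. Over all genes 2 were lower and 0 higher in that fit.

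Directions turned mostly in members without a call. With the length offset this held for Kdm3a (0.28), Kdm4b (0.075), Kdm5a (0.57), Kdm6a (0.12), Kdm7a (0.71), Kmt5b (0.038), Kmt5c (-0.16), Setd3 (-0.014), Setd5 (0.18), Setd6 (-0.37) and Setd7 (0.30). With the block added they were Kdm1b (0.10), Kdm2a (0.0045), Kdm3a (0.37), Kdm4b (0.21), Kdm5a (0.59), Kdm5d (0.084), Kdm6a (0.14), Kdm7a (0.59), Kmt5b (0.043), Kmt5c (-0.13), Setd3 (-0.063), Setd5 (0.12), Setd6 (-0.36) and Setd7 (0.29). With both splines they were Kdm1b (0.033), Kdm3a (0.31), Kdm5a (0.60), Kdm6a (0.19), Kdm7a (0.86), Kmt5b (0.049), Kmt5c (-0.30), Setd5 (0.16), Setd6 (-0.43) and Setd7 (0.30). With the GC offset they were Ezh1 (-0.025), Kdm3a (0.088), Kdm7a (0.18), Kmt5c (-0.23), Setd6 (-0.13) and Setdb2 (0.067). On log2(TPM + 1) they were Ezh1 (-0.57), Kdm4c (-0.11), Kmt5c (-0.42), Setd3 (-0.20) and Setd6 (-0.18), and on log2(TPM + 0.1) they were -0.61, -0.12, -0.43, -0.20 and -0.19. With 1 library left out, Ezh1 ran from -0.16 to 0.26, Kdm3a from -0.12 to 0.066, Kdm7a from -0.33 to 0.078, Kmt5c from -0.14 to 0.34, Setd6 from -0.049 to 0.15 and Setdb2 from -0.24 to 0.014.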
